A study of Homo sapiens with 6 samples.

Results

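The genes described are 42 heat shock chaperones of the cytosol and mitochondria, with their helpers and the factors HSF1 and HSF2, among the 23459 genes of the count table. They were chosen by name, as a family. From general knowledge of the heat shock response, 16 were classed as heat-inducible. The remaining 24 were classed as constitutive because they were not among those 16, and the 2 HSF factors were put in neither class. These choices were made with earlier results of these data known. All 42 had a row, HSPB11 under its current RefSeq symbol IFT25, and 39 passed the filter on low counts. The cells were Raji, an established Burkitt's lymphoma line of germinal centre B cell origin. They carried a lentiviral short hairpin RNA (shRNA) in the pLKO.1 vector, either the non-target control SHC002 (3 libraries) or OBF1sh1 against OBF1 (3 libraries). Both groups were infected for 5 days and selected for 7 days in 3 μg/ml puromycin. OBF1, encoded by POU2AF1, joins the Oct factors on octamer DNA and raises transcription in B cells. The groups rest on 1 line and 1 hairpin each, and no label tells if the 3 libraries of a group are 3 cultures, so p-values reflect only the variation among these libraries, possibly technical.

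Chaperones bind unfolded proteins and pass them through cycles driven by ATP. HSP70 proteins take up new or damaged chains delivered by HSP40 (DNAJ) partners and release them with the help of HSP110 and BAG exchange factors, HSP90 finishes kinases and other signalling clients with a set of co-chaperones, and the ring-shaped chaperonins HSP60 and CCT fold proteins inside a chamber. Cells make constitutive members at all times and add inducible members when heat or misfolded protein releases HSF1, which binds heat shock elements, runs of the unit GAA in alternating orientation, in their promoters.

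Because heat shock elements are the sequences that HSF1 reads, they were searched for in the 250 bases before each RefSeq start (GRCh38.p14), for the 38 members with an entry. The members without one were FKBP4, HSF1, HSPA14 and STUB1. An element of 2 units is spelled GAANNTTC or TTCNNGAA, each of which reads the same on both strands. An element of 3 units, the first form followed by NNGAA or the second by NNTTC, was found for 6 of the 38 genes, against 0.557% of the 27305 genes with a RefSeq promoter. These were CHORDC1, DNAJB6, HSP90AA1, HSP90AB1, HSPA8 and HSPD1. The 2-unit form, which every 3-unit element contains, was found for 16 of the 38 genes against 14.0% of genes with a promoter. It was present for 10 of 15 heat-inducible and 6 of 22 constitutive members. The 3-unit form was present for 3 of 15 and 3 of 22. The octamer of the Oct factors, ATGCAAAT or ATTTGCAT on the other strand, was found for 0 of the 38, against 2.03% of genes with a promoter. Such a match is a string of letters and not a measured binding site. The elements below are shown because some belong to genes that fell and some to genes that did not; capitals mark the GAA and TTC units with the bases between them, and every line is 30 bases, 5′ to 3′ on the gene's strand.
HSPA1A, chr6:31815426-31815455, plus strand: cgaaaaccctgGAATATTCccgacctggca
HSPA1B, chr6:31827622-31827651, plus strand: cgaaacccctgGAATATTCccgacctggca
CHORDC1, chr11:90223084-90223113, minus strand: accgGAAAATTCGCGAAGGTTCCTGAAacg
DNAJB6, chr7:157336864-157336893, plus strand: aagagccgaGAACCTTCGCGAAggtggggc
HSP90AA1, chr14:102087112-102087141, minus strand: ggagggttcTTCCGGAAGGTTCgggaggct
HSP90AB1, chr6:44247769-44247798, plus strand: gggagcaggTTCTGGAAGATTCatgggctc
HSP90AB1, chr6:44247822-44247851, plus strand: ctgagattgTTCTGGAAGCTTCtggattct
HSPA8, chr11:123062346-123062375, minus strand: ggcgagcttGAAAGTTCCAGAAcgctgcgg
HSPA8, chr11:123062171-123062200, minus strand: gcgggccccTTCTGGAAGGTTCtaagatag
HSPD1, chr2:197500061-197500090, minus strand: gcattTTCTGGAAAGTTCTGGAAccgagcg
The longest run, 23 bases in CHORDC1, ended 37 bases before a RefSeq start, and the HSP90AA1 element 75 bases before its start. In GENCODE v29, the windows of HSPA1A, HSPA1B, DNAJB6 and HSP90AB1 overlapped no exon. Those of CHORDC1, HSP90AA1, HSPA8 and HSPD1 overlapped an exon annotated to the same gene, and the HSPD1 window also an exon of HSPE1 on the other strand.

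The promoters of HSPA1B, DNAJB4 and DNAJB1 are shown at more length because these 3 members fell furthest and carry 2-unit elements. Each is cut where an annotated exon begins, with elements in capitals. HSPA1B and DNAJB4 have 1 element each and DNAJB1 has 2.
HSPA1B, chr6:31827488-31827734, plus strand: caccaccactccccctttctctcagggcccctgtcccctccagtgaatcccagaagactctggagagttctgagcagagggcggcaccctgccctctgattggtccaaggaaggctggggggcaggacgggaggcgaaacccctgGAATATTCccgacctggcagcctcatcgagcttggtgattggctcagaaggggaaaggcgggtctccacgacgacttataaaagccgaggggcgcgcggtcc
DNAJB4, chr1:78004689-78004853, plus strand: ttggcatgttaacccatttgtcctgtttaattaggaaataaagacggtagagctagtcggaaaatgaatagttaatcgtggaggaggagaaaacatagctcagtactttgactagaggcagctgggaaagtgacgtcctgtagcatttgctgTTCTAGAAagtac
DNAJB1, chr19:14518421-14518647, minus strand: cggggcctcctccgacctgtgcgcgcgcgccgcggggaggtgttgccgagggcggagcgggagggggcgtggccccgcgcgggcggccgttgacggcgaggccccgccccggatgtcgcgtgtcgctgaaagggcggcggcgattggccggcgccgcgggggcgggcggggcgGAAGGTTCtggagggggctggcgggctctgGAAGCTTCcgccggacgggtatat

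The libraries held 29569281 to 32612429 counts, and levels are given as CPM, counts scaled to the library's total with TMM factors. POU2AF1, the targeted gene, was at 512, 516 and 512 CPM in the control libraries and at 244, 241 and 241 CPM in the OBF1 shRNA libraries. The groups did not overlap, and the fold was 2.12 lower (edgeR adjusted p = 1.25e-17). The 6 B cell markers summed to between 2456 and 2525 CPM in control and between 4123 and 4179 CPM in OBF1 shRNA libraries, with 5 called higher and CD79B called lower, and the part of this in the results below was not tested. In sum, the 8 markers of T and NK cells reached at most 0.894 CPM, with CD3D, CD2, CD5 and GNLY at 0, the 8 myeloid markers to at most 2.20 CPM, with MPO and S100A9 at 0, and the 9 markers of the 293T packaging cells to at most 0.506 CPM, with KRT18, CDH2 and NEFM at 0. In bulk RNA, fewer cells of a state and less RNA per cell cannot be told apart.

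Among the chaperones classed as heat-inducible most were lower in OBF1 shRNA cells, while those classed as constitutive were called higher and lower in about the shares of all genes. Of the 39 members tested, 20 fell, 10 rose and 9 did not pass (edgeR quasi-likelihood test, adjusted p under 0.05). Of all 12010 tested genes, 75.4% were called, 37.9% lower and 37.5% higher, so the number of members called, 76.9%, lay near the background. Of 13 heat-inducible members tested, 10 fell and only FKBP4 rose, with BAG3 and HSPE1 not passing, and their median log2 fold change was -0.36. Of 24 constitutive members, 9 fell and 9 rose, with a median of -0.02. The median over all tested genes was -0.01. The difference between these classes, which were drawn up with earlier results known, was not tested. With library sizes alone, without a factor for composition, the median of all genes moved by -0.11 and the counts of members became 4 higher and 27 lower, so small gains below depend on scaling. No scaling used here moved the values up by a like amount, so small falls were not put to the same check.

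**Figure D1:**
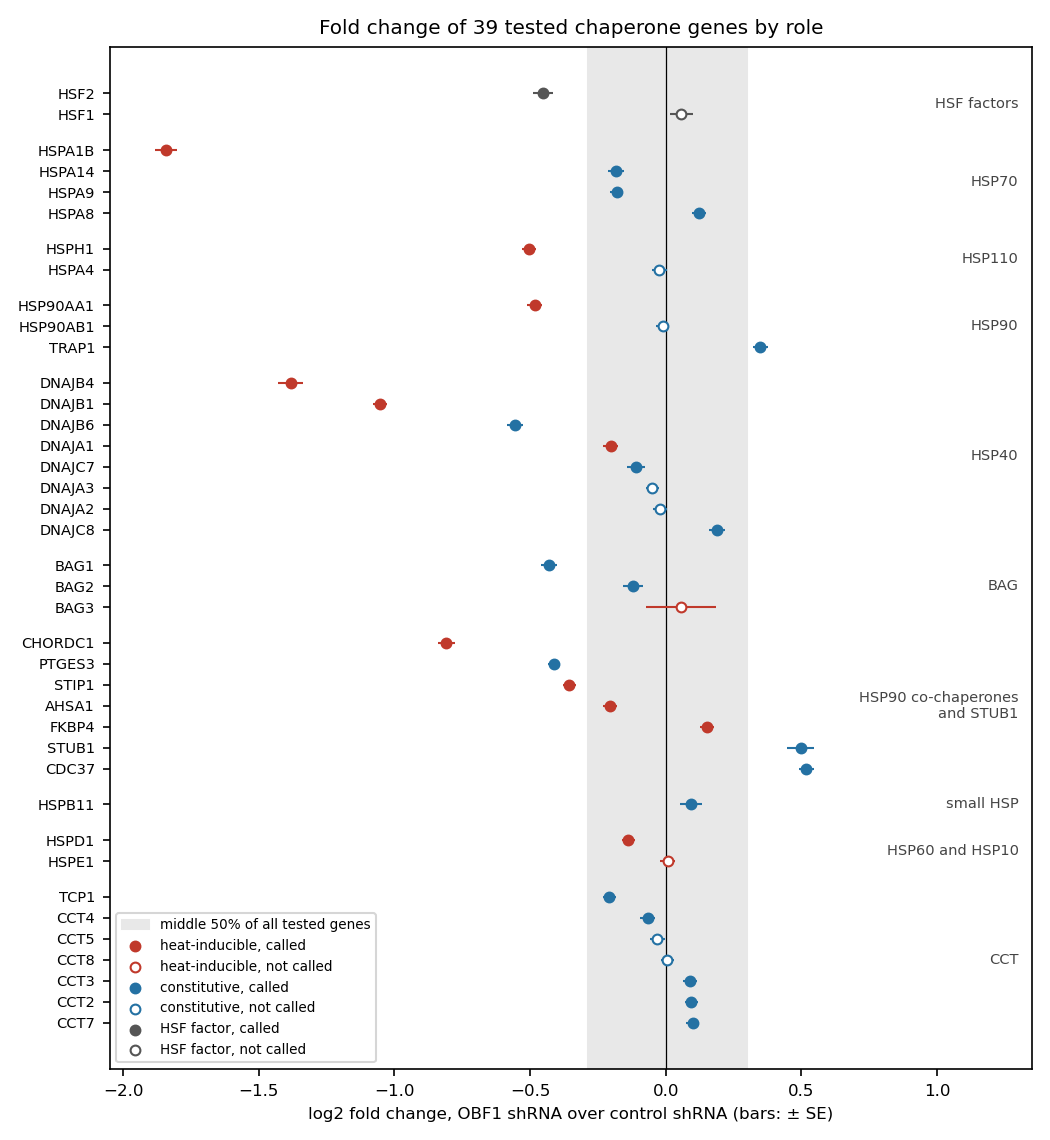
Log2 fold change of each tested member (x axis, OBF1 shRNA over control shRNA, bars ± SE), grouped by role on the y axis, with red for heat-inducible members, blue for constitutive ones and grey for HSF1 and HSF2, filled points for called genes and a grey band for the middle 50% of all tested genes. HSPA1B, DNAJB4, DNAJB1 and CHORDC1, all heat-inducible, lie furthest left, and CDC37 and STUB1 furthest right.

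At 1.5-fold or more, 4 members fell: HSPA1B, DNAJB4, DNAJB1 and CHORDC1. The share of all tested genes called lower at that size was 10.4%, and 4 of 39 is close to it. At that size 0 members rose, where 12.9% of all tested genes did. All 4 were in the heat-inducible class, with CHORDC1 the last inside this limit at 1.75-fold and DNAJB6 the first outside it at 1.47-fold. The groups did not overlap for 31 of 39 members, against 76.6% of all tested genes.

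HSF1, the main factor of the heat shock response, was at 96.5, 98.7 and 87.6 CPM in control and at 92.9, 98.9 and 102 CPM in OBF1 shRNA libraries. The groups overlapped, and HSF1 was not called (log2 fold change 0.06, SE 0.04, edgeR adjusted p = 0.24). Without control shRNA replicate 2 it was called higher, at 0.10 (edgeR adjusted p = 0.0334). HSF2, its paralog, was at 60.1, 57.4 and 58.1 CPM in control and at 42.1, 43.5 and 42.6 CPM in OBF1 shRNA libraries. All OBF1 shRNA libraries were below all control libraries, and HSF2 fell by 0.45 on the log2 scale (SE 0.04, edgeR adjusted p = 4.96e-09).

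Among HSP70 genes the inducible form fell and the main constitutive form rose slightly. HSPA1B, the stress-induced HSP70, was at 244, 233 and 237 CPM in control and at 71.8, 61.7 and 66.2 CPM in OBF1 shRNA libraries. The groups were far apart, a 3.58-fold lower level (log2 fold change -1.84, SE 0.04, edgeR adjusted p = 1.32e-17). HSPA1A, its near copy, held only 6 counts over all 6 libraries, with 0 to 3 in each. In GENCODE v29, 71.3% of the stretches of 50 bases in HSPA1A transcripts also occur in HSPA1B. How reads of such copies were assigned is not given in the sources used here, so the value of either gene alone is uncertain. Summed into 1 row, the pair gave a log2 fold change of -1.84.

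HSPA8, the constitutive HSP70 of the cytosol, was at 4937, 5163 and 5077 CPM in control and at 5432, 5522 and 5578 CPM in OBF1 shRNA libraries. The groups did not overlap, but the gain was small (log2 fold change 0.12, SE 0.03, edgeR adjusted p = 0.000261) and was lost with library sizes alone, at 0.01. HSPA9, the mitochondrial HSP70, was at 1099, 1121 and 1115 CPM in control and at 967, 991 and 985 CPM in OBF1 shRNA libraries. It fell by 0.18 on the log2 scale (SE 0.02, edgeR adjusted p = 1.39e-06), with no overlap. HSPA14, a ribosome-associated HSP70, also fell by 0.18. The ratio of HSPA8 to the HSPA1A and HSPA1B pair, in CPM, was 21.2 ± 0.967 in control and 83.1 ± 6.99 in OBF1 shRNA libraries (SD, n = 3, exact two-sided permutation p = 0.1, adjusted to 0.12 over 6 sums and ratios). With 3 libraries against 3, 0.1 is the smallest p such a test allows.

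Of the HSP110 genes, exchange factors for HSP70, 1 fell, 1 was not called and 1 had too few counts. HSPH1, the heat-inducible one, was at 1096, 1139 and 1129 CPM in control and at 767, 793 and 813 CPM in OBF1 shRNA libraries. No control library came near the other group, and the gene fell by 0.50 on the log2 scale (SE 0.03, edgeR adjusted p = 5.99e-12). HSPA4, the constitutive one, was at 585 ± 15.0 and 576 ± 18.6 CPM (SD, n = 3) and was not called (edgeR adjusted p = 0.462). With library sizes alone, HSPA4 was called lower, at -0.13. HSPA4L, a relative known from testis, had 2 counts over all libraries. A count of 0 allows up to 3 counts, or 0.0920 to 0.101 CPM in a library; such limits cover counting error only.

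Of the 3 HSP90 genes, 1 fell, 1 rose and 1 was not called. HSP90AA1, the heat-inducible cytosolic form, was at 5356, 5662 and 5472 CPM in control and at 3828, 3986 and 3986 CPM in OBF1 shRNA libraries. It fell by 0.48 on the log2 scale (SE 0.03, edgeR adjusted p = 1.67e-11). HSP90AB1, the constitutive cytosolic form, was at 3286, 3396 and 3447 CPM in control and at 3301, 3393 and 3352 CPM in OBF1 shRNA libraries, with overlapping groups and no call (log2 fold change -0.01, SE 0.03, edgeR adjusted p = 0.684). It was called lower with library sizes alone, at -0.12. Per kilobase of the deposited gene length, the ratio of HSP90AA1 to HSP90AB1 went from 1.05 ± 0.0258 to 0.761 ± 0.00953 (SD, n = 3, exact two-sided permutation p = 0.1, adjusted 0.12). Per kilobase of GENCODE v29 exon bases, a length chosen after seeing the data, the ratio was 0.925 in control and 0.667 in OBF1 shRNA libraries, so whether it lies above 1 in control depends on the length used. Both genes hold a 3-unit heat shock element before a RefSeq start, as shown above. TRAP1, the mitochondrial HSP90, was at 185, 192 and 180 CPM in control and at 236, 234 and 240 CPM in OBF1 shRNA libraries, and rose by 0.35 on the log2 scale (SE 0.03, edgeR adjusted p = 2.82e-09).

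Of the 8 HSP40 genes, which deliver clients to HSP70 and switch on its ATPase, 5 fell and 1 rose. Among all tested genes 37.9% fell and 37.5% rose. DNAJB4 was at 55.1, 55.5 and 56.4 CPM in control and at 22.9, 21.0 and 20.2 CPM in OBF1 shRNA libraries, a 2.61-fold lower level (log2 fold change -1.38, SE 0.05, edgeR adjusted p = 8.41e-15). DNAJB1, the usual inducible partner of HSP70, was at 390.4, 409.5 and 407 CPM in control and at 193, 193 and 195 CPM in OBF1 shRNA libraries, 2.08-fold lower (log2 fold change -1.05, SE 0.03, edgeR adjusted p = 9e-17). In both, every OBF1 shRNA library was far below every control library. DNAJB6, which holds back protein aggregation, was at 196 ± 3.12 and 133 ± 3.66 CPM (SD, n = 3), and fell by 0.55 on the log2 scale. The heat-inducible DNAJA1 fell by 0.20 and DNAJC7, which binds both HSP70 and HSP90, by 0.11. DNAJC8, associated with splicing, rose by 0.19. DNAJA2 and the mitochondrial DNAJA3 were at -0.02 and -0.05 and did not pass, but both were called lower with library sizes alone, at -0.13 and -0.16, and DNAJA3 also with upper-quartile factors, at -0.07.

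**Figure D2:**
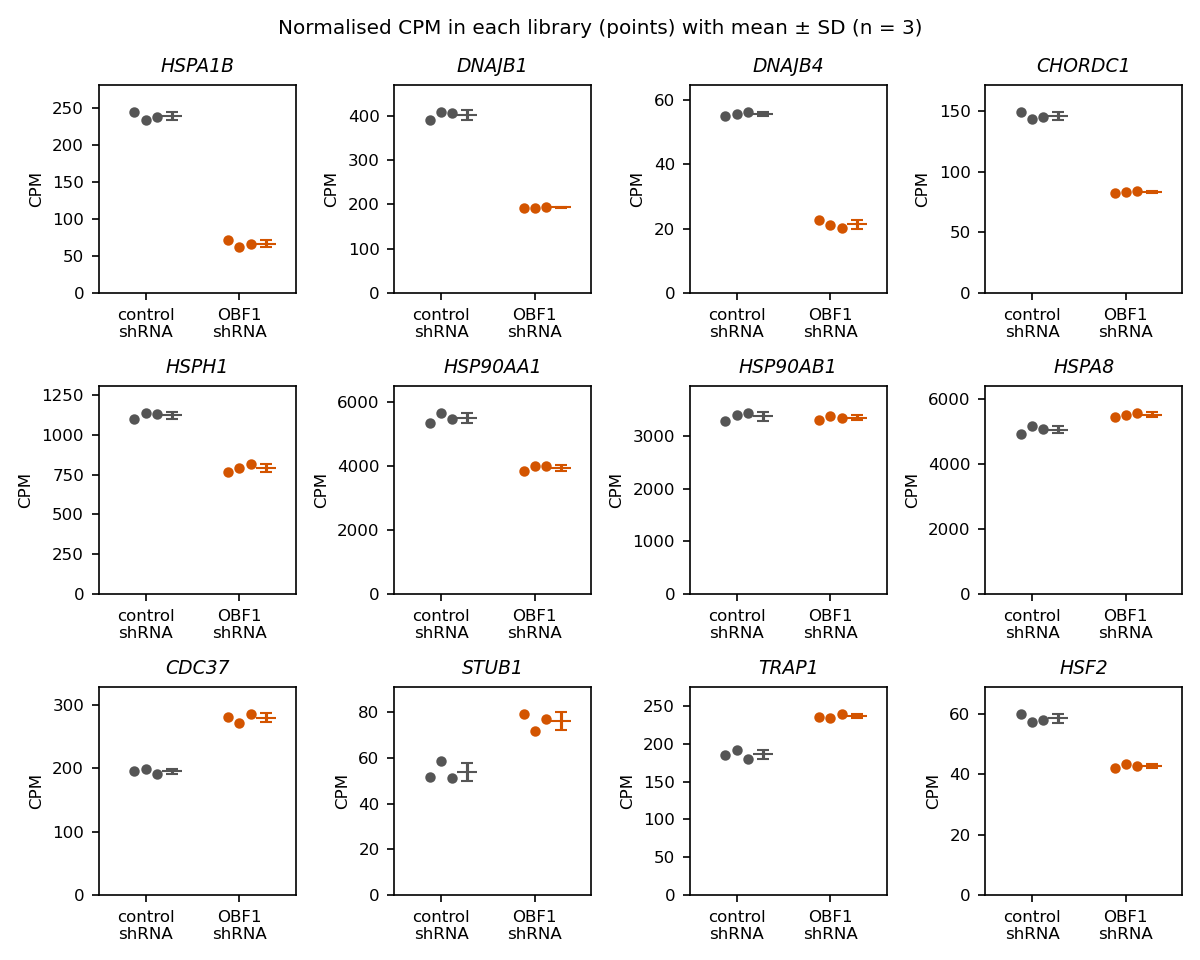
Normalised CPM (y axis, from 0) in each of the 3 control shRNA and 3 OBF1 shRNA libraries (x axis) for 12 members, with points for libraries and bars for mean ± SD. The top row shows the 4 members that fell at least 1.5-fold, with no overlap between groups, while the libraries of HSP90AB1 overlap.

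BAG proteins release nucleotide from HSP70. BAG1 was at 224 ± 5.69 and 166 ± 3.93 CPM (SD, n = 3) and fell by 0.43 on the log2 scale (SE 0.03, edgeR adjusted p = 1.66e-10), and BAG2 fell by 0.12. BAG3, the heat-inducible member, was low throughout, at 2.69 ± 0.263 and 2.80 ± 0.108 CPM (SD, n = 3), and was not called (log2 fold change 0.06, SE 0.13, edgeR adjusted p = 0.706). Its SE was the largest of the 39 members.

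Of the 7 genes that work with HSP90, counting STUB1, 4 fell and 3 rose, where 37.9% and 37.5% of all tested genes did. CHORDC1, a zinc-binding co-chaperone, was at 149.6, 144 and 145 CPM in control and at 82.6, 83.5 and 83.9 CPM in OBF1 shRNA libraries. These groups lay far apart, a 1.75-fold lower level (log2 fold change -0.81, SE 0.03, edgeR adjusted p = 3.2e-14). PTGES3, the p23 protein that holds the closed form of HSP90, fell by 0.41, STIP1, which links HSP70 to HSP90, by 0.36, and AHSA1, which speeds the HSP90 ATPase, by 0.21 on the log2 scale.

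Rising members of this set were led by CDC37 and STUB1. CDC37, which brings kinases to HSP90, was at 195, 199 and 191 CPM in control and at 280.5, 272 and 286 CPM in OBF1 shRNA libraries, 1.43-fold higher (log2 fold change 0.52, SE 0.03, edgeR adjusted p = 6.65e-12). STUB1, the ubiquitin ligase CHIP that sends chaperone clients to the proteasome, was at 51.5, 58.6 and 51.4 CPM in control and at 79.4, 71.8 and 77.0 CPM in OBF1 shRNA libraries. Its libraries did not overlap, and it rose by 0.50 on the log2 scale (SE 0.05, edgeR adjusted p = 4.72e-08). FKBP4, an immunophilin known from steroid receptor complexes, rose by 0.15, a call lost with library sizes alone, at 0.04 (edgeR adjusted p = 0.108).

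Of the mitochondrial chaperonin and its lid, the first fell slightly and the second was not called. HSPD1, encoding HSP60, was at 2332, 2393 and 2360 CPM in control and at 2110, 2149 and 2174 CPM in OBF1 shRNA libraries, without overlap, and fell by 0.14 on the log2 scale (SE 0.02, edgeR adjusted p = 4.12e-05). HSPE1, encoding HSP10, lies next to HSPD1 in head-to-head orientation and was at 319, 337 and 318 CPM in control and at 327, 322 and 329 CPM in OBF1 shRNA libraries. Its groups overlapped and it was not called (edgeR adjusted p = 0.824), though with library sizes alone it was called lower, at -0.10. The ratio of HSPD1 to HSPE1, per kilobase, was 1.90 ± 0.0415 in control and 1.72 ± 0.0299 in OBF1 shRNA libraries (SD, n = 3, exact two-sided permutation p = 0.1, adjusted 0.12). On exon bases the ratio was 3.39 and 3.06. A separate read-through row, HSPE1-MOB4, contains HSPE1 sequence. How shared reads were counted is not given, so the HSPE1 level and these ratios are uncertain.

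Small heat shock proteins hold unfolding chains without using ATP. HSPB1, encoding HSP27, had 2 counts over all libraries. HSPB11 was placed in this group by its name, though its current symbol, IFT25, is that of an intraflagellar transport protein. It was at 45.4 ± 0.794 and 48.4 ± 2.06 CPM (SD, n = 3), a gain of 0.09 (SE 0.04) with an edgeR adjusted p of 0.0478. Leaving out control shRNA replicate 1 or 3 ended that call (edgeR adjusted p = 0.0695 and 0.110), as did leaving out OBF1 shRNA replicate 2 or 3 (edgeR adjusted p = 0.134 and 0.160) and the use of DESeq2 (adjusted p = 0.0896). Upper-quartile factors and a block for the replicate number also ended the call, and with library sizes alone the sign changed.

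CCT, the cytosolic chaperonin of 8 different subunits known for folding actin and tubulin, had small differences, the largest a fall of 0.21 on the log2 scale in TCP1. Of the 7 member genes, CCT2, CCT3 and CCT7 rose by 0.09, 0.09 and 0.10, TCP1, the first subunit, fell by 0.21, and CCT4 fell by 0.07. CCT5 and CCT8, at -0.03 and 0.01, were not called. Among all tested genes 37.5% were called higher and 37.9% lower. The 3 gains turned to -0.01, -0.02 and -0.01 with library sizes alone, so the direction of these subunits depends on scaling, and CCT5 and CCT8 were then called lower, at -0.14 and -0.10. CCT4 lost its call without any 1 library other than control shRNA replicate 1, with edgeR adjusted p up to 0.294. The remaining subunit, CCT6A, which is no member of the list, was called lower, at -0.07. Per kilobase of deposited length, the control level of the 8 subunits ran from 151 CPM for CCT5 to 367 CPM for CCT6A. On exon bases it ran from 109 to 250.5 CPM for the same subunits, with another order between them.

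**Figure D3:**
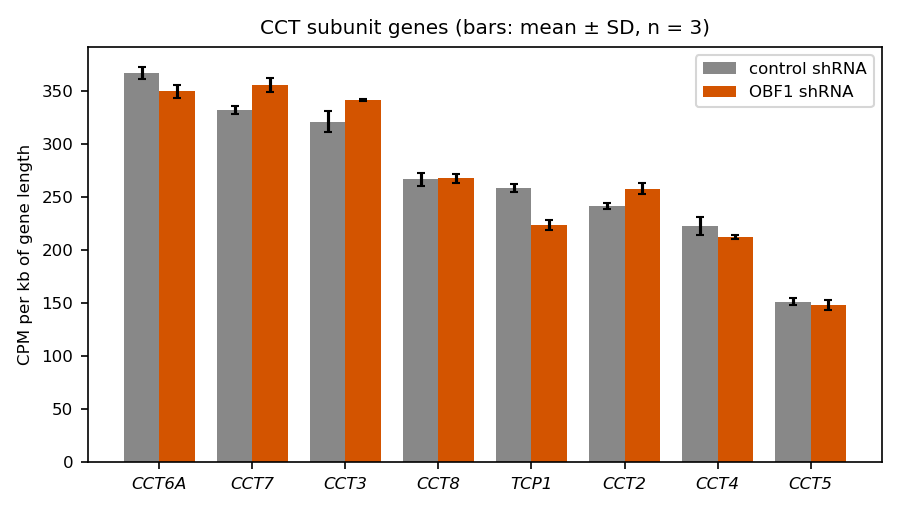
Level of the 8 CCT subunit genes as CPM per kilobase of deposited gene length (y axis, from 0; bars mean ± SD, n = 3) in control shRNA and OBF1 shRNA libraries, ordered by control level. CCT6A is highest and CCT5 lowest in control, and the bars of the 2 groups are close in every subunit.

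Per kilobase of deposited length in control libraries, HSPA8 was at 1765 ± 39.7 CPM (SD, n = 3), HSP90AA1 at 1226 ± 34.5, HSP90AB1 at 1162 ± 28.3 and HSPD1 at 647 ± 8.34. Per kilobase of exon bases the order of the first 3 reversed, with HSP90AB1 at 1133 ± 27.6, HSP90AA1 at 1047 ± 29.5 and HSPA8 at 1043 ± 23.5 CPM (SD, n = 3), so these 3 genes cannot be ranked here. HSPD1 was the fourth on either length. HSPA1A and HSPA1B were left out because their deposited lengths were 4.89 and 5.00 times their exon bases in GENCODE v29.

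The transcripts of all 42 genes summed to 29737 ± 587 CPM in control libraries and to 26988 ± 367 CPM after OBF1 shRNA, a difference of -9.24% (SD, n = 3, exact two-sided permutation p = 0.1, adjusted 0.12). The 16 heat-inducible genes summed to 12071 ± 263 CPM in control and to 9275 ± 158 CPM after OBF1 shRNA, with no overlap between libraries (SD, n = 3, exact two-sided permutation p = 0.1, adjusted 0.12). HSP90AA1 alone, at 5497 and 3933 CPM, made up most of that difference. The p of 0.1 is the smallest such a test allows, and the groups did not overlap for 76.6% of all tested genes. The class was also drawn up with earlier results known, so these p-values are descriptive. Of the 16 genes 13 were tested and 10 called lower, where 37.9% of all tested genes were. The 24 constitutive genes summed to 17513 ± 331 and 17571 ± 206 CPM, and their libraries overlapped (SD, n = 3, exact two-sided permutation p = 0.8). HSP90 genes made up the largest difference by role, 9059 ± 214 against 7519 ± 134 CPM (SD, n = 3), with HSP90AA1 the member of the 3 called lower. CCT genes summed to 4601 ± 93.3 and 4582 ± 49.4 CPM (SD, n = 3).

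**Figure D4:**
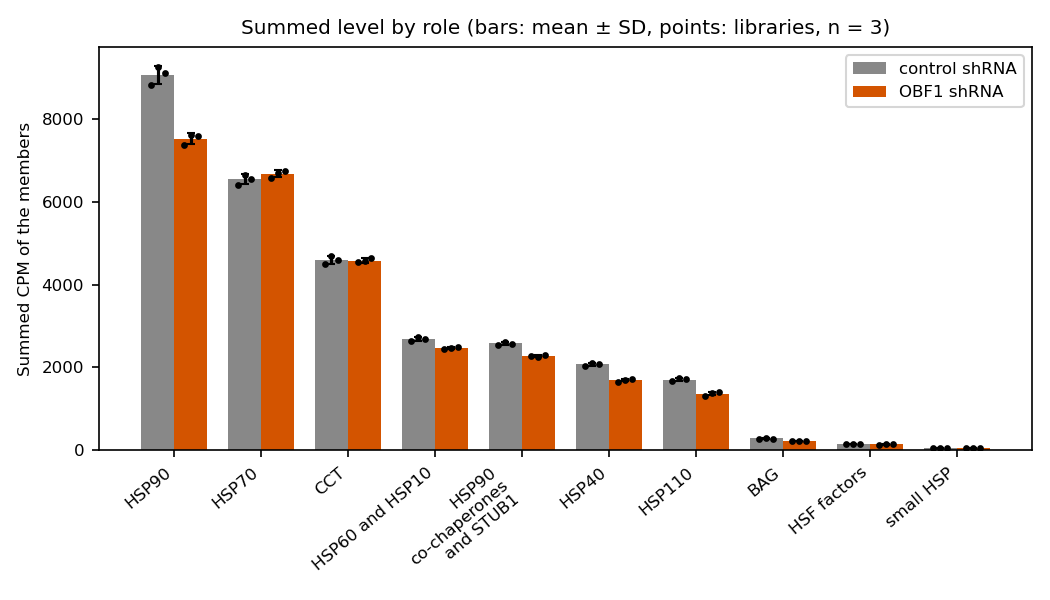
Summed CPM of the members by role (y axis, from 0; bars mean ± SD, points single libraries, n = 3) in control shRNA and OBF1 shRNA libraries. HSP90 genes sum to 9059 CPM in control and to 7519 CPM after OBF1 shRNA, while the CCT bars are at 4601 and 4582 CPM.

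Immediate early genes, which like heat shock genes respond quickly to handling and stress, were mostly higher. Of 14 tested, 10 rose, among them JUNB by 1.38 on the log2 scale, where 37.5% of all tested genes rose. The 2 that fell, where 37.9% of all tested genes did, were FOSB, from 6.36 to 2.10 CPM, and PPP1R15A, by 0.58 on the log2 scale. The median log2 fold change of the 14 was 0.59. The part of such a response in the chaperone results was not tested.

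A further 76 genes were listed by function, mostly chaperones and their helpers, with some proteases and further HSF factors. Of these, 75 had a row and 62 were tested. Among the 62, 19 rose, 25 fell and 18 did not pass, a called share of 71.0% against 75.4% of all genes. With library sizes alone, 38 of them were lower. Among the largest gains in genes that averaged 5 CPM or more were the mitochondrial J proteins DNAJC30 (1.98-fold, from 12.1 ± 0.927 to 24.0 ± 1.88 CPM, SD, n = 3) and DNAJC15 (1.58-fold). DNAJB5 rose 1.84-fold and FKBP8, a membrane-bound immunophilin, 1.45-fold. The largest losses in such genes were DNAJC6, or auxilin, which uncoats clathrin vesicles, at 1.43-fold lower, DNAJB2 at 1.40-fold, DNAJC2, a ribosome-bound J protein, at 1.36-fold and LONP1, the mitochondrial matrix protease, at 1.33-fold lower.

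The chaperones of the endoplasmic reticulum, the family most like these, gave 10 higher, 7 lower and 4 not called of 21 tested, a called share of 81.0% against 75.4% of all genes, with a median log2 fold change of 0.06. HSPA5, the HSP70 of that compartment, was at 686 CPM in control and at 771 CPM after OBF1 shRNA, a rise of 0.17 on the log2 scale (SE 0.03, n = 3, edgeR adjusted p = 1.98e-05), and its HSP90, HSP90B1, rose by 0.11. The 7 that fell were DNAJB9, by 0.93 on the log2 scale, DNAJC3, by 0.52, CANX, by 0.43, and DNAJB11, DNAJC1, DNAJC10 and MANF. All J proteins on that list were thus called lower. With library sizes alone only 4 of the 21 were called higher. The difference between the 2 families was not tested.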

How the data were processed

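RNA of 6 Raji libraries was compared; per the labels' protocols they were prepared as stranded mRNA libraries (TruSeq). The authors deposited raw read counts per gene with a gene length, and all 6 count columns were used (0 left out). The submitters' processing notes list hg 19 and mm 9. For the aligner, counting tool, annotation and strand setting the sources used here give nothing, so near-identical and overlapping genes are uncertain. Gene identifiers were matched to RefSeq (GRCh38.p14) for 23308 of 23459 rows.

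Counts were fitted in R 4.3.3 with edgeR 4.0.16: filterByExpr (min.count 10, min.total.count 15), TMM, glmQLFit and glmQLFTest on all 6 libraries, with Benjamini-Hochberg adjustment over 12010 genes and a threshold of 0.05. SE is the log2 fold change divided by the square root of F. Alternatives were DESeq2 1.42.0, limma-voom (limma 3.58.1), other scalings and filters, the HSPA1A and HSPA1B rows summed, another gene length (chosen after seeing the data), the replicate block and leaving out each library. Chi-square per degree of freedom between libraries of a group ranged from 1.89 to 3.28, above sampling noise.

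Members, lists and classes were chosen with earlier results of these data known. Values per library are given for members called at 1.5-fold or more, HSF1, HSF2 and the named pairs; HSPH1, TRAP1, CDC37 and STUB1 were added after their values were seen. The further genes named are the 4 largest called changes each way with a mean of at least 5 CPM. Matches to promoter sequence used RefSeq. Protein sequences were not used here.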

Additional observations from a re-analysis of the deposited data

How the results depend on the processing

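Of the 39 tested members, 24 kept their call (higher, lower or not called) under every alternative run, and only 4 changed under an alternative other than library sizes alone: HSF1, HSPB11, DNAJA3 and CCT4. The number of members called was within 1.5 times the main count under every alternative except library sizes alone, which gave 4 higher; with 1 library left out it ranged from 9 to 11 higher and from 19 to 20 lower. Library sizes alone also gave 38 lower genes on the list of further genes and 4 higher endoplasmic reticulum chaperones. They moved the median log2 fold change to -0.47 for heat-inducible and -0.13 for constitutive members. Without a low-count filter the heat-inducible median was -0.41, a setting that adds genes with few counts. Leaving out 1 library gave -0.37 to -0.34 and -0.04 to -0.00. With library sizes alone HSPB11 (-0.016), HSPE1 (-0.10), CCT2 (-0.015), CCT3 (-0.020), CCT7 (-0.0100) and CCT8 (-0.10) changed sign, as did HSF1 (-0.05) and BAG3 (-0.05), which were not called either way. The cause of these changes was not tested. The replicate block cost 2 calls, HSPB11 (0.09, edgeR adjusted p = 0.0778) and CCT4 (-0.07, edgeR adjusted p = 0.0596). Same-numbered libraries did not deviate together (correlations 0.01, -0.12 and -0.06), and pairs of unlike number ran from -0.05 to 0.11. With 3 libraries in each group such values cannot tell whether the numbers pair the samples. Genes under about 3 counts in a library cannot be compared at this depth.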

Other observations

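Some rows next to the members were looked up after the members' values were seen. Of these, HSPA1L and HSP90AB4P were not called, at -0.17 and -0.05 on the log2 scale (edgeR adjusted p = 0.344 and 0.641). HSPA6 is a strictly heat-inducible HSP70 that is hardly made without stress. HSPA6 had 8, 5 and 7 counts in the control libraries and 2, 0 and 2 counts in the OBF1 shRNA libraries. These were too few for the test. HSPA7, also too low for the test, averaged 0.0731 CPM without the OBF1 hairpin and 0.112 CPM with it, and its groups overlapped. CHORDC1P4, a pseudogene of CHORDC1, was at 32.9 ± 0.693 and 18.9 ± 0.875 CPM (SD, n = 3) and fell by 0.80 on the log2 scale (edgeR adjusted p = 7.06e-11), beside the fall of 0.81 in CHORDC1. HSPE1-MOB4, a read-through transcript that contains HSPE1 sequence, was at 136 ± 4.21 and 123 ± 1.49 CPM (SD, n = 3) and fell by 0.14 on the log2 scale, while HSPE1 was not called. How reads shared by these rows were counted is not given in the sources used here.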
